A study of Mus musculus with 6 samples.

Results

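The Wnt pathway was followed through 10 of its genes in the 3' end RNA profiles of TGFβ-treated mouse lung fibroblasts. They were chosen by symbol from the 55364 genes in the count tables, as 2 ligands (Wnt5a, Wnt5b), 2 Frizzled receptors (Fzd1, Fzd2), 4 secreted antagonists (Sfrp1, Sfrp2, Dkk2, Dkk3), the intracellular effector Ctnnb1 and the target gene Axin2. All 10 were found in the tables. Of these, 7 had enough counts to be tested, and Wnt5b, Sfrp2 and Axin2 did not.

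The study profiled 6 libraries of primary lung fibroblasts (LFs) grown from collagenase-digested lungs of young adult C57Bl6/J mice. There were 3 libraries from wild type (wt) mice and 3 from mice that the sample labels call TKS5 knockout and that the study describes as littermates carrying 1 inactivated copy of Sh3pxd2a, the gene of the podosome scaffold Tks5 (Tks5+/-). The inactivated allele was made in every cell with a CMV promoter driven Cre, and the labels do not say which of the study's alleles the libraries carry. All 6 cultures were kept without serum and exposed to 10 ng/ml TGFβ1 for 24 h, so the comparison is between genotypes under TGFβ and holds no untreated cells. The study describes its samples as independent. How many mice gave the 3 libraries of a genotype is not given in the sources used here, and the p-values measure the spread between these libraries.

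Wnt proteins are secreted, lipid-modified ligands that bind Frizzled receptors. In the canonical branch, Frizzled and the co-receptors Lrp5 and Lrp6 stop the destruction complex of Axin, Apc and Gsk3 from degrading β-catenin, which then drives TCF/LEF target genes such as Axin2. Wnt5a and Wnt5b mostly signal without β-catenin, through Frizzled, Ror and Ryk receptors, to the cytoskeleton and cell polarity. Secreted Frizzled-related proteins (Sfrp) bind Wnt ligands in the medium, and most Dickkopf (Dkk) proteins bind Lrp5 and Lrp6. The pathway is active in developing and fibrotic lung, where fibroblasts both make and receive Wnt signals.

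Sequence upstream of the start site was at hand for 6 of the 10 genes, in RefSeq's table for GRCm38.p6, which gives 250 bases before and 50 after each start. The letters CTTTG followed by 2 bases that are each A or T, a short form of the TCF/LEF site, were searched on both strands. They were found in 1 of the 6 genes, Wnt5b, and in 18.9% of all 27025 genes in the table, which may have several promoters each. The Wnt5b match lies at chr6:119449440-119449469 on the minus strand, 71 bases before the third of its annotated starts, and is shown because it is the single match among these genes, with the motif in capitals.
Wnt5b: gagtaagtctctCTTTGATctgctccctgt
The 100 bases just upstream of RefSeq's start are shown for Dkk2 and Fzd1, the genes that were higher in the libraries labelled TKS5 knockout, and for the target gene Axin2. Capitals mark GC boxes (GGGCGG on either strand) and a TATA box (TATAAA on either strand), which are common elements of core promoters. The stretches lie at chr3:132085192-132085291 (plus strand) for Dkk2, chr5:4758217-4758316 (minus strand) for Fzd1 and chr11:108920249-108920348 (plus strand) for Axin2.
Dkk2: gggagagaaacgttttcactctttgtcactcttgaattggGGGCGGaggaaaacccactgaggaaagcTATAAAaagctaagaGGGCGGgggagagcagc
Fzd1: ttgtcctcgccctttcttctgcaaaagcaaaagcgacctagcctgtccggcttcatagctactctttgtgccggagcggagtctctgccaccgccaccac
Axin2: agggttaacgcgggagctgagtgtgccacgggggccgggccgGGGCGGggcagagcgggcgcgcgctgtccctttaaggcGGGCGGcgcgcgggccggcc
The Dkk2 stretch holds 2 GC boxes and, between them, a TATA box, the Axin2 stretch holds 2 GC boxes, and the Fzd1 stretch holds neither element. Over all promoters, 24.7% of such stretches hold a GC box. In the full promoter windows a GC box was found in 35.7% and a TATA box in 13.6% of all promoters. These are matches of letters and not measured binding.

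Between the genotypes, the 7 tested genes moved in both directions. Wnt5a, Sfrp1 and Dkk3 were lower in the libraries labelled TKS5 knockout (written Tks5+/- here, after the study), Dkk2 and Fzd1 were higher, and Fzd2 and Ctnnb1 did not pass the test, which was edgeR's quasi-likelihood test at a change of at least 1.2-fold and an adjusted p under 0.05. Across all 10346 genes tested, 44.9% were called, 22.1% as lower and 22.8% as higher, so 5 of 7 called genes (71.4%) stood against a background in which calls were common. Dkk2 entered the test through its Tks5+/- libraries alone, as its wt counts were too low for the filter, so this count is a description and no support for a change of the group. The median log2 fold change of the 7 genes was −0.33, against −0.05 over all genes tested. It depended on the processing and ranged from −0.75 with scaling by library totals, where that of all genes was −0.47, to −0.12 with a correction for transcript length, and was −0.20 without Tks5+/- replicate 2 and −0.72 with the authors' normalized counts. These are levels in whole cultures, in which fewer cells of a type and less RNA per cell cannot be told apart.

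**Figure D1:**
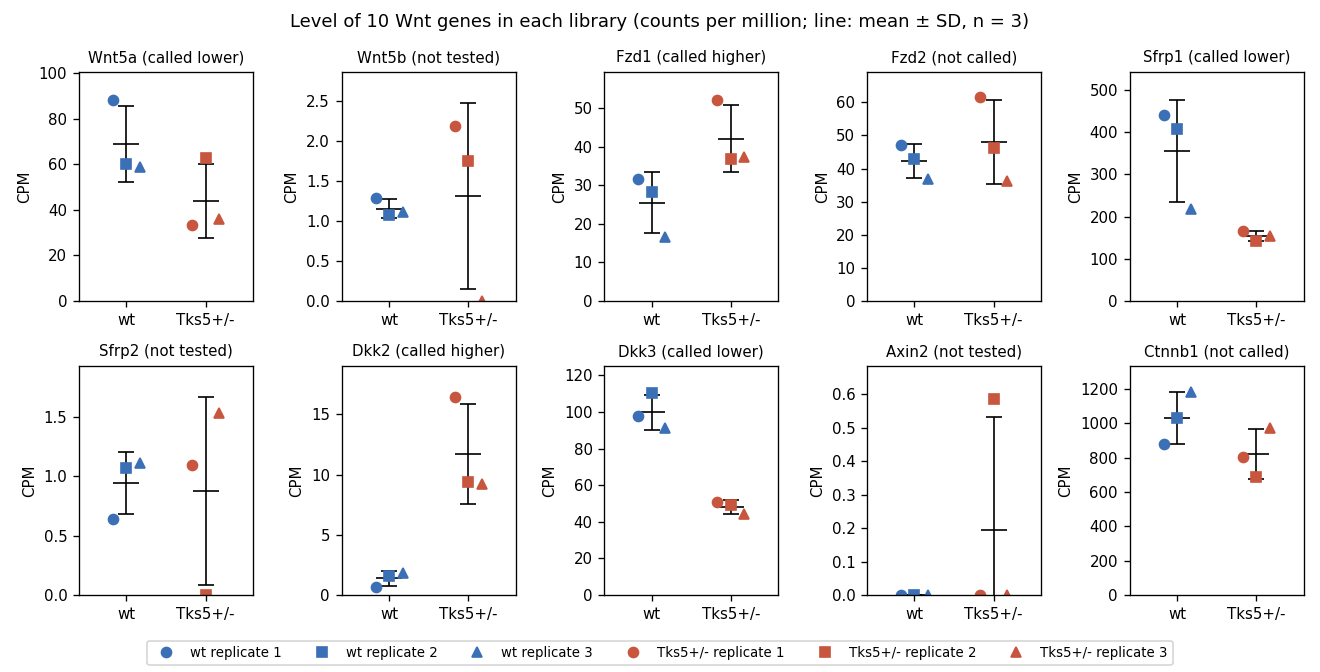
CPM (counts per 1000000, linear axis from 0) of each of the 10 genes in the 3 wt and 3 Tks5+/- libraries, with the symbol shape giving the replicate number and the black lines the mean ± SD (n = 3). The groups are apart for Sfrp1, Dkk2, Dkk3 and Fzd1 and overlap for Wnt5a, Fzd2 and Ctnnb1, while Wnt5b, Sfrp2 and Axin2 sit at a few counts or none.

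The libraries held 1344507 to 2369882 counts each, and 3 counts corresponded to 1.11 to 1.93 counts per 1000000 (CPM). Sh3pxd2a had 132, 102 and 105 CPM in the wt libraries and 131, 151 and 133 CPM in those labelled TKS5 knockout. Its log2 fold change of 0.29 did not pass the test (adjusted p = 0.249, edgeR), so the targeted gene did not separate the genotypes in these counts of its 3' end. By quantitative PCR, a different measure, the study reports less Tks5 mRNA in Tks5+/- than in wt LFs. The calls in the marker lists that follow stand beside 22.1% of all tested genes called lower and 22.8% called higher. Of the 10 fibroblast markers 4 were called higher and 1 lower. Their summed level was 13040 to 14640 CPM in wt and 17020 to 19400 CPM in Tks5+/-. Much of that level was S100a4 (8216 to 10764 CPM in wt, 8304 to 13110 CPM in Tks5+/-), which was not called. Of the 7 tested macrophage markers 3 were called lower. Their summed level, over the whole list of 10, was 1670 CPM in wt replicate 3, of which Lyz2 held 1298.5 CPM. It was 273 and 294 CPM in the other wt libraries and 120 to 138 CPM in Tks5+/-. Ptprc and Adgre1 were at 0 in every Tks5+/- library. Of the 4 tested endothelial markers 3 were called lower (113 to 137 against 45.6 to 60.4 CPM), with Pecam1, Tek and Vwf at 0 in Tks5+/-. The mesothelial list (34.8 to 61.2 against 7.68 to 84.5 CPM) had 2 of 3 tested markers lower. Gpm6a held 70.2 of the 84.5 CPM, in Tks5+/- replicate 1. The epithelial list (24.1 to 48.6 against 29.7 to 60.3 CPM) had 1 lower (Krt18) and 1 higher (Ager) of 2, with Epcam and Cdh1 at 0 in Tks5+/-. Ager held nearly all of its Tks5+/- level (37.3, 60.3 and 29.2 CPM). The smooth muscle and pericyte list (4815 to 5729 against 6248 to 7133 CPM) had 4 lower (Myh11, Des, Cspg4, Notch3) and 2 higher (Cnn1, Tagln) of 7. Most of its summed level was Acta2 (3977 to 4932 CPM in wt, 3471 to 4915 CPM in Tks5+/-), which was not called. Of the lower calls, 2 macrophage (Cd68, Adgre1), 2 endothelial (Pecam1, Kdr), 2 mesothelial, 1 epithelial and 2 smooth muscle and pericyte markers entered the test through wt alone, since no Tks5+/- library reached the filter's minimum, so these counts are tilted by the filter. The part of these other cell types in the values below was not tested.

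Among the ligands, Wnt5a carried a small decrease that rested on single libraries. Wnt5a (ENSMUSG00000021994, chr14:28504750-28527448, plus strand, GRCm38) had 88.2, 59.9 and 58.6 CPM in wt replicates 1 to 3 and 33.5, 62.6 and 35.8 CPM in Tks5+/- replicates 1 to 3. Tks5+/- replicates 1 and 3 lay below every wt library, but Tks5+/- replicate 2 lay above wt replicates 2 and 3, so the groups overlapped. Its mean was 68.9 ± 16.7 CPM in wt and 44.0 ± 16.2 CPM in Tks5+/- (SD, n = 3 each), and the log2 fold change of −0.64 (SE 0.26, edgeR adjusted p = 0.0438) passed the threshold narrowly. The call was lost without wt replicate 1 (−0.43, adjusted p = 0.224), without Tks5+/- replicate 1 (−0.44, 0.207) and without Tks5+/- replicate 3 (−0.49, 0.187). It was also lost with DESeq2 (−0.61, adjusted p = 0.10).

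Wnt5a is a long transcript of 7010 bases, at the 91.6th percentile of the tested genes. Over 10339 genes with an annotated length, log2 fold change and length had a Spearman correlation of −0.40, a description across genes that share the same libraries. After the trend with length was removed, the Wnt5a log2 fold change was −0.12 (adjusted p = 0.738), and the direction of the other 6 tested genes and the calls of Fzd1, Sfrp1, Dkk2 and Dkk3 stayed as they were.

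**Figure D2:**
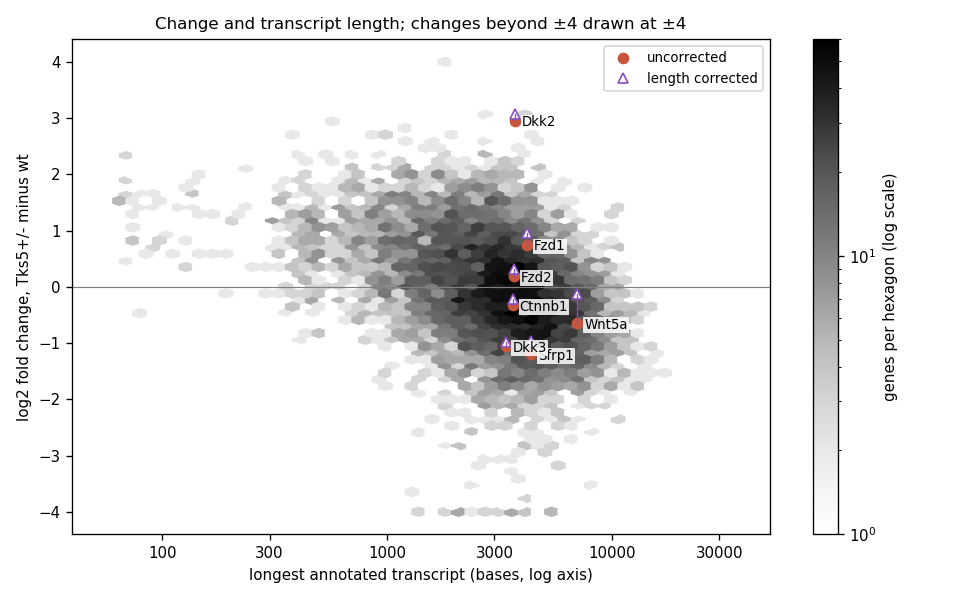
Log2 fold change (Tks5+/- minus wt) against the length of the longest annotated transcript (bases, log axis) for the 10339 tested genes with a length, shaded by the number of genes per hexagon. The 7 tested Wnt genes are drawn before (circles) and after (triangles) the trend with length was removed, and Wnt5a, the longest of them, moves from −0.64 to −0.12.

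Wnt5b, the close relative of Wnt5a (ENSMUSG00000030170, chr6:119432531-119544347, minus strand), was near the detection limit. It had 2, 2 and 3 counts in wt and 4, 3 and 0 counts in Tks5+/-. Over the pooled counts, scaled by library size, the ratio of Tks5+/- to wt was 1.12, with an exact 95% interval of 0.334 to 3.73 that covers counting error only. These counts cannot tell apart the ratios inside this interval.

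The Frizzled receptors are 7-pass membrane proteins that bind Wnt through an extracellular cysteine-rich domain. Fzd1 (ENSMUSG00000044674, chr5:4753839-4758035, minus strand) had 31.5, 28.4 and 16.7 CPM in wt and 52.1, 36.9 and 37.4 CPM in Tks5+/-. Every Tks5+/- library lay above every wt library, with the widest gap between Tks5+/- replicate 1 and wt replicate 3. The rise from 25.5 ± 7.82 to 42.1 ± 8.68 CPM (SD, n = 3 each) was 1.68-fold, a log2 fold change of 0.75 (SE 0.27, edgeR adjusted p = 0.0281). The call was lost on leaving out wt replicate 3 (0.49, adjusted p = 0.169) or Tks5+/- replicate 1 (0.60, 0.106), and with scaling by library totals (0.34, 0.338). The library left out in the first of these, wt replicate 3, has the highest macrophage marker level given above and the most counts of all libraries. A part of either in the Fzd1 values was not tested.

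Fzd2 (ENSMUSG00000050288, chr11:102604396-102608058, plus strand), a receptor closely related to Fzd1, had 47.0, 42.8 and 36.7 CPM in wt and 61.5, 46.2 and 36.3 CPM in Tks5+/-. The groups overlapped, since Tks5+/- replicate 3 was the lowest and Tks5+/- replicate 1 the highest of all 6 libraries. The log2 fold change was 0.19, with a 95% interval of −0.30 to 0.69 (adjusted p = 0.535, edgeR). With scaling by library totals its sign turned (−0.22).

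The secreted antagonists held the largest changes of the 7 tested genes, in opposite directions. Sfrp1 (ENSMUSG00000031548, chr8:23411502-23449632, plus strand), which carries a Frizzled-like domain and binds Wnt ligands outside the cell, had 441, 407 and 218 CPM in wt and 166, 142 and 155 CPM in Tks5+/-. All Tks5+/- libraries lay below all wt libraries and close to each other, whereas wt replicate 3 held a level nearer to Tks5+/- than to the other wt libraries. Its mean fell from 355 ± 120 to 154 ± 12.3 CPM (SD, n = 3 each), with wt 2.30-fold higher (log2 fold change −1.20, SE 0.24, edgeR adjusted p = 3.01e-04). Sfrp1 was called lower under all 16 alternatives run, between −1.62 and −0.97, and its log2 fold change was −1.46 without wt replicate 3.

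Dkk3 (ENSMUSG00000030772, chr7:112116017-112159057, minus strand), the divergent member of the Dickkopf family, showed the tightest libraries of the 7 genes. It had 97.8, 110 and 91.2 CPM in wt and 51.0, 49.2 and 44.0 CPM in Tks5+/-. The lowest wt library was above the highest Tks5+/- library by a wide margin, and the coefficient of variation was 9.68% in wt and 7.56% in Tks5+/-. Dkk3 fell from 99.8 ± 9.65 to 48.1 ± 3.64 CPM (SD, n = 3 each; wt 2.07-fold higher), a log2 fold change of −1.05 (SE 0.21, edgeR adjusted p = 3.40e-04), and it was called lower under all 16 alternatives (−1.47 to −0.97).

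Dkk2 (ENSMUSG00000028031, chr3:132085292-132180304, plus strand), which binds Lrp5 and Lrp6 and can act as antagonist or weak agonist of the pathway, moved the other way. It had 1, 3 and 5 counts in wt and 30, 16 and 18 counts in Tks5+/-, or 0.644, 1.61 and 1.85 CPM against 16.5, 9.36 and 9.21 CPM. The wt libraries were at the level of a few counts and every Tks5+/- library lay well above them. The log2 fold change was 2.95 (SE 0.52, 95% interval 1.88 to 4.03, edgeR adjusted p = 8.55e-05), and the pooled counts of 9 and 64 gave a ratio of 7.93 with an exact 95% counting interval of 3.93 to 18.1. Dkk2 was called higher under all 15 alternatives that tested it (2.56 to 3.25). It entered the test through Tks5+/- alone, so this agreement is a description and no added support for the rise. Dkk2 could not be tested with a minimum of 10 counts in every library.

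Sfrp2 (ENSMUSG00000027996, chr3:83766321-83774316, plus strand), another ligand-binding antagonist, was near the detection limit like Wnt5b. It had 1, 2 and 3 counts in wt and 2, 0 and 3 counts in Tks5+/-, and the ratio of Tks5+/- to wt over the pooled counts was 0.930 (exact 95% interval 0.224 to 3.66). Its counted 3' end also overlaps the gene Gm26771 on the opposite strand, and whether the counting used strand is not given in the sources used here.

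**Figure D3:**
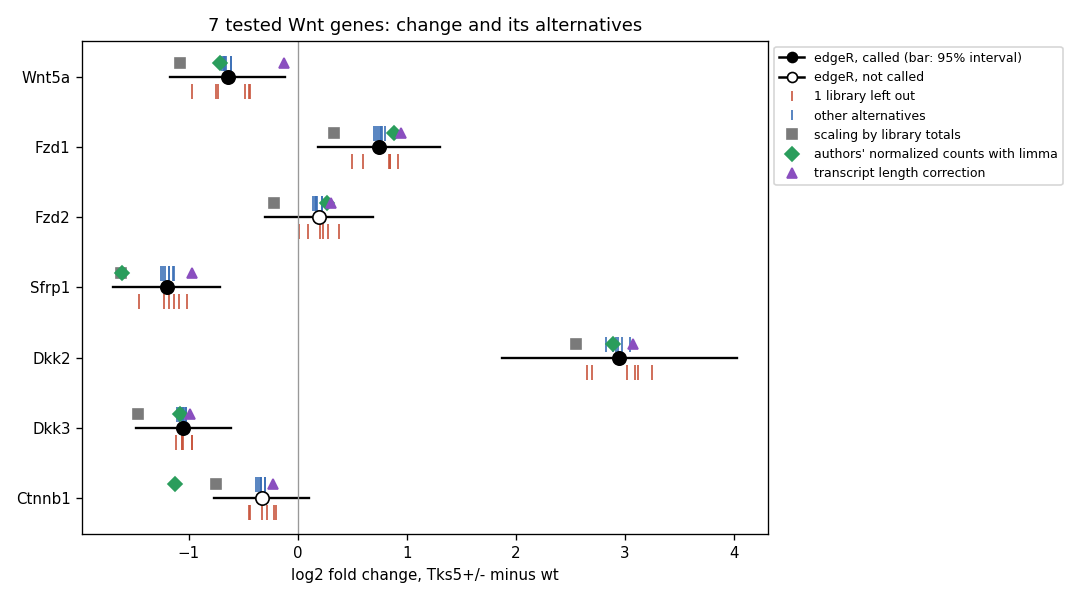
Log2 fold change (Tks5+/- minus wt) of the 7 tested genes by edgeR, with its 95% interval (black). Marks under each bar are the fits that left out 1 library, and marks over it are the other alternatives. Sfrp1 and Dkk3 stay clear of 0 throughout, Fzd1 and Wnt5a come near 0 under some alternatives, and Ctnnb1 is most negative with the authors' normalized counts. Dkk2 stays clear of 0 in the 15 alternatives that tested it, but it entered the test through Tks5+/- alone.

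Ctnnb1 encodes β-catenin, the transcriptional co-activator of the canonical branch and a part of adherens junctions. It (ENSMUSG00000006932, chr9:120929216-120960507, plus strand) had 881, 1033 and 1184 CPM in wt and 804, 685 and 973 CPM in Tks5+/-. Tks5+/- replicates 1 and 2 were below all wt libraries, while Tks5+/- replicate 3 lay between wt replicates 1 and 2. The log2 fold change of −0.33 (95% interval −0.77 to 0.10, edgeR adjusted p = 0.205) did not pass the test. On the authors' normalized scale the same libraries had scores of 2521, 2951 and 3484 in wt and 1456, 1068 and 1616 in Tks5+/-, which do not overlap, and limma on those scores called Ctnnb1 lower (−1.12, adjusted p = 3.56e-04). Scaling by library totals also called it lower (−0.75, adjusted p = 0.00433). Its counted 3' end overlaps Ulk4 on the opposite strand, a gene listed with 921 counts.

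Axin2, a scaffold of the destruction complex and the most widely used readout of canonical signalling (ENSMUSG00000000142, chr11:108920349-108950783, plus strand), had 1 count in all 6 libraries together, in Tks5+/- replicate 2. A count of 0 allows up to 3 counts, or 1.11 to 1.93 CPM depending on the library, so no level and no difference could be measured at this depth. With no filter on low counts, the adjusted p of the 3 untested genes was 0.949 for Wnt5b, 0.971 for Sfrp2 and 0.514 for Axin2.

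The libraries of a group differed among themselves in a pattern shared by several of the 7 tested genes. In wt, replicate 3 had the lowest level of 5 of the 7 genes and the highest of the remaining 2, Dkk2 and Ctnnb1. In Tks5+/-, replicate 1 had the highest level of 5 of the 7 genes, Wnt5a and Ctnnb1 being the exceptions. Without wt replicate 3, 3 of the genes were called lower and 1 higher, Fzd1 being lost. An exact two-sided permutation test of a single gene cannot go below p = 0.1 with 3 libraries against 3. That value was reached by Sfrp1, Dkk3, Dkk2 and Fzd1, the 4 genes whose groups do not overlap, while Wnt5a had 0.3, Ctnnb1 0.2 and Fzd2 0.7. The share of all tested genes with separate groups was not counted. With 44.9% of them called, the separation only describes these 4 genes and is not shown to be particular to them.

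The other genes of the pathway were taken from lists by role, 105 genes of which 53 were tested. Of these, 12 were called lower and 4 higher (30.2% called, against 44.9% of all genes tested), with a median log2 fold change of −0.27. This tilt was not kept after the trend with length was removed, when 8 were called lower and 7 higher and the median was 0.05. Among the other 17 ligands, 1 had enough counts, Wnt9a, and it fell from 140 ± 21.2 to 35.3 ± 8.05 CPM (SD, n = 3 each; log2 fold change −1.98, edgeR adjusted p = 6.17e-07). Both tested ligands, Wnt5a and Wnt9a, were called lower, as were 22.1% of all genes tested. The Wnt9a call held under all 16 alternatives, and the Wnt5a call was lost in 6 of 16. The ligand handling genes Porcn, which acylates Wnt proteins, and Wls, their carrier to the cell surface, were not called (0.75, adjusted p = 0.0976, and 0.16, adjusted p = 0.543).

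Of the other receptors 8 were tested. Ryk, a receptor for Wnt5a, rose from 224 ± 54.2 to 633 ± 176 CPM (SD, n = 3 each; log2 fold change 1.50, adjusted p = 3.21e-05), and Lrp6, the canonical co-receptor, was lower (−0.78, adjusted p = 0.0311). The Lrp6 call was lost in 9 of 16 alternatives, DESeq2 (0.0777) and the fits without wt replicates 1 (0.101) or 2 (0.128) or without any single Tks5+/- library (0.0514 to 0.0845) among them. Ror2, another Wnt5a receptor, did not pass (0.62, adjusted p = 0.251), nor did Fzd7 (0.52, adjusted p = 0.389). Among the other secreted antagonists 1 of 10 could be tested. This was Frzb, a relative of Sfrp1, which rose from 47.3 ± 5.34 to 104 ± 16.9 CPM (SD, n = 3 each; log2 fold change 1.14, edgeR adjusted p = 2.05e-04). Counting the 10 genes themselves, the 4 tested secreted antagonists were split, with Sfrp1 and Dkk3 lower and Dkk2 and Frzb higher.

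R-spondins amplify Wnt signals through Lgr receptors. Rspo1 was called lower, but it entered the test through wt alone, as Dkk2 did through Tks5+/-. It had 10, 27 and 49 counts in wt and 2, 1 and 0 counts in Tks5+/-, and the pooled counts, higher in wt, had a ratio of 25.7 (exact 95% interval 8.50 to 127). Rspo3 (0.38, adjusted p = 0.198) and Lgr4 (−0.21, 0.721) were not called. Kremen1, the tested membrane inhibitor and a Dkk receptor, was not called either (0.50, adjusted p = 0.339).

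In the cytoplasmic list 4 of 16 tested genes were lower and none was higher, against 22.1% lower and 22.8% higher over all genes tested. Gsk3b, the kinase that marks β-catenin for degradation, fell by 1.27 on the log2 scale (adjusted p = 1.99e-04), and the destruction complex scaffold Apc fell by 1.23 (0.00125). The tankyrases Tnks2 and Tnks, which direct Axin to degradation, fell by 1.00 (7.51e-04) and 0.65 (0.0338). The Tnks call was lost in 6 of 16 alternatives, among them DESeq2 (adjusted p = 0.073) and leaving out replicate 1 (0.0703) or 3 (0.0996) of wt or replicate 2 (0.0708) or 3 (0.173) of Tks5+/-. After the trend with length was removed, Apc (−0.45, adjusted p = 0.204), Tnks2 (−0.52, 0.0638), Tnks (−0.02, 0.950) and the co-receptor Lrp6 (−0.13, 0.751) were no longer called, as for Wnt5a, while Gsk3b was (−0.68, 0.0292).

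In the nuclear list, Tcf7l2, a TCF/LEF factor, was lower (−1.04, adjusted p = 0.00544) and Bcl9, which joins β-catenin to the transcription machinery, was higher (0.93, adjusted p = 0.0184), among 9 tested. The Bcl9 call was lost with scaling by library totals (0.51, adjusted p = 0.187) and without wt replicate 2 (0.0642), wt replicate 3 (0.0818) or Tks5+/- replicate 2 (0.0565). The co-repressors Tle1 (0.49, adjusted p = 0.152) and Aes (−0.38, 0.169) were not called. Of the other 15 target genes, 5 could be tested. Nkd2, a feedback inhibitor that binds Dishevelled, fell from 73.0 ± 23.4 to 6.74 ± 0.61 CPM (SD, n = 3 each; log2 fold change −3.41, edgeR adjusted p = 2.66e-08), and Ccn4, a secreted matricellular protein, was lower too (−0.78, adjusted p = 0.0167), with groups that overlapped. The Ccn4 call was lost without wt replicate 1 (−0.36, adjusted p = 0.236), Tks5+/- replicate 1 (0.0793) or Tks5+/- replicate 2 (0.0717) and with the length correction (−0.44, 0.173). Ccnd1, which encodes cyclin D1 and answers to many growth signals, rose from 18.0 ± 3.43 to 49.8 ± 10.5 CPM (SD, n = 3 each, log2 fold change 1.45, edgeR adjusted p = 1.04e-04). Cd44, a hyaluronan receptor, was not called (−0.26, adjusted p = 0.307). It was called lower by limma on the authors' normalized counts (−0.52, adjusted p = 0.0455) and with scaling by library totals (−0.68, 0.00843). With the length correction its sign turned (0.13). The counted end of Ccnd1 (114 counts in wt and 272 in Tks5+/-) overlaps LTO1 on the opposite strand, a gene listed with 519 counts. Of 7 tested planar polarity genes, Fuz (−1.48, adjusted p = 1.85e-04) and Prickle2 (−1.61, 0.00152) were lower, and Vangl1 (−0.82, 0.0516) and Scrib (−0.41, 0.307) did not pass. The counted end of Fuz (217 counts in wt and 71 in Tks5+/-) overlaps Ap2a1 on the opposite strand, which is listed with 286 counts.

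**Figure D4:**
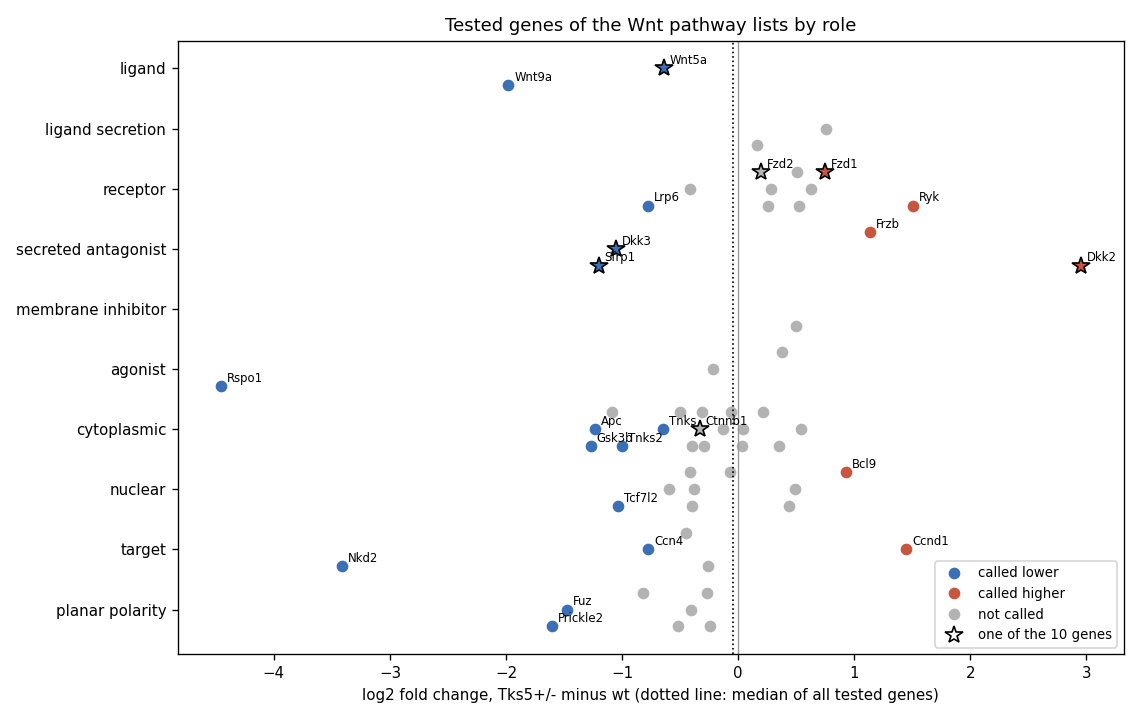
Log2 fold change (Tks5+/- minus wt) of the tested genes of the Wnt pathway lists, in rows by role, with those called lower in blue, called higher in red and not called in grey, and stars for the 10 genes. Both ligands lie left of the dotted median of all tested genes (−0.05), the secreted antagonists lie on both sides of it, and no tested cytoplasmic gene is called higher.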

How the data were processed

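Primary mouse LFs under TGFβ were profiled by Quant-Seq, which sequences the 3' ends of polyadenylated RNA, in 3 wt and 3 Tks5+/- libraries grouped by the genotype label. According to the methods and the submitters' processing notes, the authors trimmed reads with Trim Galore, aligned them to GRCm38 with HISAT2 and then Bowtie2, and summed reads over the 3' UTRs of each gene with metaseqR2. The deposited counts are whole reads per gene, not normalized. The authors' normalized table, from EDASeq, was treated as a score, since its values are whole numbers with the same sorted values in all 6 columns. It was used only as an alternative, with limma on log2(value + 1).

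Gene IDs were matched to GENCODE M21 (55104 of 55364 matched, and the unmatched rows held 0.221% of counts). Library totals ranged from 1344507 to 2369882 counts. Counts were tested with edgeR 4.0.16 (R 4.3.3) by the robust quasi-likelihood test after filterByExpr and TMM scaling (factors 1.15 to 1.17 in wt and 0.817 to 0.932 in Tks5+/-), with Benjamini-Hochberg adjustment over 10346 genes, and called at an adjusted p under 0.05 and a fold of at least 1.2. CPM are counts per 1000000 counts of tested genes after TMM scaling. On simulated counts, the test recovered 45% of 100 genes changed by 1 on the log2 scale and 95% of 100 changed by 2, with 8 false calls. A change of the smaller size was thus often missed. The simulation changed far fewer genes than were called here, equally up and down, so it did not check the scaling. Alternatives were DESeq2 1.42.0, limma 3.58.1 (voom), RLE, upper-quartile and library total scaling, no filter, at least 10 counts in every library, a replicate block, a loess correction (span 0.5) for the longest transcript's length, and leaving out each library. The text names the 10 genes, Sh3pxd2a and up to 4 genes per pathway list, those with the smallest adjusted p. The 10 genes and the lists were chosen with earlier results of these data known. Intervals on pooled counts cover counting error only. Overlaps were sought within 50 bases of each 3' UTR.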

Additional observations from a re-analysis of the deposited data

How the results depend on the processing

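Genes called ranged from 3705 to 5306 over the 16 alternatives. When libraries were scaled by their totals, the median over all genes went from −0.05 to −0.47 (log2) and higher calls from 50.8% to 25.7% of the calls (1362 higher, 3944 lower). Of the 10 genes, 2 to 4 were called lower. The number called higher was 1 with scaling by library totals, where Fzd1 was lost, and 1 with at least 10 counts in every library, where Dkk2 could not be tested, and it was 1 to 2 when 1 library was left out (1 without wt replicate 3 and 1 without Tks5+/- replicate 1). Of the other pathway genes, 20 were called lower with scaling by library totals and 7 were called higher, with 8 lower, under the length correction. Signs turned with scaling by library totals for Fzd2 (−0.22), Sh3pxd2a (−0.13), Rspo3 (−0.035) and Wls (−0.27), with the authors' normalized counts for Wls (−0.25), and with the length correction for Cd44 (0.13) and Lgr4 (0.098). Lgr4 ranged from −0.55 to 0.083 when 1 library was left out, turning without Tks5+/- replicate 3. Sh3pxd2a was called higher with the length correction (1.01, adjusted p = 4.93e-04). None of these 6 genes was called with the settings of the report. Causes were not tested.

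Besides the values given with them, Wnt5a was not called with RLE scaling (−0.61, adjusted p = 0.0615). Labels number the libraries 1 to 3 in both genotypes. Deviations from the group means correlated at −0.001, −0.064 and 0.082 for same-numbered libraries, and at −0.102 to 0.097 for differently numbered ones. No pairing by number was seen, but with 3 libraries per group this cannot exclude one. With the replicate block, 4668 genes were called, 3 of the 10 genes lower and 2 higher, and 12 and 4 of the other pathway genes, with no call changed among the named genes.

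Depth limited Wnt5b, Sfrp2 and Axin2, and 53 of the other 105 pathway genes were tested.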
